A study of Mus musculus with 3 samples.

Results

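The Hox genes of the 4 clusters were examined in 3 acute myeloid leukemias that lacked miR-196b, a microRNA gene lying between Hoxa9 and Hoxa10. Members were all symbols made of Hox, a cluster letter from a to d and a paralog number. Of the 39 such genes in RefSeq, 38 had a row among the 28074 symbols analysed, and Hoxd4 was not analysed here. The leukemias came from the spleens of 3 moribund mice of genotype miR196b-/-, Dnmt3afl/fl, Flt3ITD/ITD, Mx1Cre, numbered 1, 2 and 3 (animals 5348, 5451 and 5480). All 3 thus carried the miR-196b deletion, floxed alleles of the DNA methyltransferase gene Dnmt3a, the internal tandem duplication of the receptor gene Flt3 on both alleles, and Cre driven by the interferon-inducible Mx1 promoter, which is active in blood cells and in other tissues. The sample titles give Dnmt3a as +/- where the genotype field gives fl/fl. Splenocytes were enriched with magnetic beads for cells bearing c-Kit, and the ages of the mice are not given in the sources used here. The study set these leukemias against Dnmt3a/Flt3ITD leukemias with miR-196b intact, whose columns match no sample of the series and stayed out, so no effect of the deletion was tested.

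Hox genes encode homeodomain transcription factors that pattern the embryo along its axis and also act in blood stem and progenitor cells. The mammalian genes lie in clusters a to d, and genes at the same position in different clusters are paralogs with the same number. In blood, the Hoxa and Hoxb genes are most active in immature cells and are shut down as cells mature, and sustained Hoxa9 expression together with the cofactor Meis1 is a known driver of myeloid leukemia in mice. The miR-196 microRNAs lie inside Hox clusters and pair with sites in the 3′ untranslated regions (3′ UTRs) of several Hox transcripts, most fully with a site in Hoxb8.

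The deleted microRNA and the relatives that share its seed (bases 2 to 8, in capitals, counted from the 5′ end) are shown because they define which Hox transcripts carry matching sites. Sequences are from RefSeq on GRCm38.p6.
miR-196b-5p: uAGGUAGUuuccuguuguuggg
miR-196a-5p: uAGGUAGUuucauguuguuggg
The mature miR-196b-5p maps to chr6:52230129-52230150 on the minus strand, inside the Hoxa cluster. miR-196a-5p differs from it by the single change C12A, outside the seed. Mir196a-1 lies in the Hoxb cluster at chr11:96265164-96265265 and Mir196a-2 in the Hoxc cluster at chr15:102973350-102973434, and no row for any mir-196 gene was analysed here, so neither the deletion nor the level of the relatives was checked. In the GENCODE M21 annotation the miR-196b hairpin, chr6:52230081-52230165, lies within an exon of the isoforms Hoxa9-204 and Hoxa9-205, annotated without a protein product, and within the span of Hoxa9-203. Whether such isoforms entered the value per symbol is not given in the sources used here.

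Perfect seed matches were searched on the sense strand of the longest annotated 3′ UTR of each member. The strongest kind, ACTACCTA, was present in 5 of 38 members (13.2%): Hoxa5, Hoxa7, Hoxb6, Hoxb7 and Hoxc8. It was present in 1.25% of the 3′ UTRs of 20987 other protein-coding genes and in 0.523% of the 3252 other genes whose 3′ UTR was between 762 and 1245 bases long, the middle range of the Hox genes. With the weaker matches ACTACCT and CTACCTA included, 9 of 38 members (23.7%) had a site, against 10.4% of other genes. The sites below are those of the detected members, with 1 of the matches of Hoxa9, and of Hoxb8, written 5′ to 3′ as DNA, with the bases of the seed match in capitals for Hoxa7, Hoxa5, Hoxa9 and Hoxb1. In Hoxb8 the capitals mark every base that would pair with miR-196a-5p.
Hoxa7 site A, chr6:52215400-52215421: ggcacagccaaaatACTACCTA
Hoxa7 site B, chr6:52215363-52215384: agaggcactcccaaACTACCTA
Hoxa7 site C, chr6:52215231-52215252: aaaccatgatcaatACTACCTA
Hoxa7 site D, chr6:52215210-52215231: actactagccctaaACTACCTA
Hoxa5, chr6:52202118-52202139: atatttttattcaaACTACCTA
Hoxa9, chr6:52223900-52223921: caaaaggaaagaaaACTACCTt
Hoxb1, chr11:96368205-96368226: tctttgtatctgcaACTACCTc
Hoxb8, chr11:96284888-96284909: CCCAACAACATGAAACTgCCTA
The Hoxa sites are on the minus strand and the Hoxb1 and Hoxb8 sites are on the plus strand. All are in 3′ UTRs of GENCODE M21 on GRCm38. Hoxa7 was the member with the most sites, 4, and Hoxa9 had 1 further, weaker match. All 4 Hoxa7 sites lie beyond the 3′ end of Hoxa7 in RefSeq (chr6:52215623-52218573). They are in its 3′ UTR only by the GENCODE annotation. The Hoxb8 site pairs with 21 of the 22 bases of miR-196a-5p and with 20 of 22 of miR-196b-5p, and its lower-case base breaks the seed match. The detected members Hoxa3, Hoxa6, Hoxa10, Hoxb4, Hoxc4 and Hoxc9 held none of the 3 motifs in the searched 3′ UTRs. That of Hoxa6 was only 77 bases long, against a median of 974.5 bases over members.

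Values are in TPM, a share of all transcripts corrected for transcript length, so levels can be compared between genes. TPM keeps no sequencing depth, so no counting interval can be given and the error is the spread between the 3 mice. The column sums were 929731, 927169 and 928490, and bringing the columns to a common upper quartile moved mice 1, 2 and 3 by -0.08, 0.01 and 0.06 log2 units. Some values per gene are low where expression is general: Atp5g2, which encodes a subunit of ATP synthase, was listed at 0 in all mice, and Ptprc, which encodes the leukocyte antigen CD45, stood at 2.25, 3.09 and 2.40 TPM. A Hox gene at 0 is therefore described only as listed at 0, and a low value as the level in this table, which may miss transcripts of the gene. The label of a c-Kit-enriched myeloid leukemia was checked on 9 progenitor markers. All 9 had a mean TPM of at least 1, against 54.1% of all symbols. Kit stood at 141 ± 8.10 TPM, Flt3 at 137 ± 27.1 TPM and the granule enzyme gene Mpo at 1081, 864 and 1632 TPM (SD, n = 3).

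In this table few Hox genes reached the level called detected, and Hoxa7 and Hoxa9 held most of the summed Hox TPM. A mean TPM of at least 1, the level called detected, was reached by 10 of 38 Hox genes (26.3%), against 54.1% of all symbols. Another 13 were listed at 0 in all 3 mice (34.2% of members, against 22.8% of all symbols), and 15 lay between. The median over members was 0.0913 TPM, against 1.67 TPM over all symbols. In bulk RNA a low value cannot be told apart as little RNA in every cell or RNA from few cells.

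**Figure D1:**
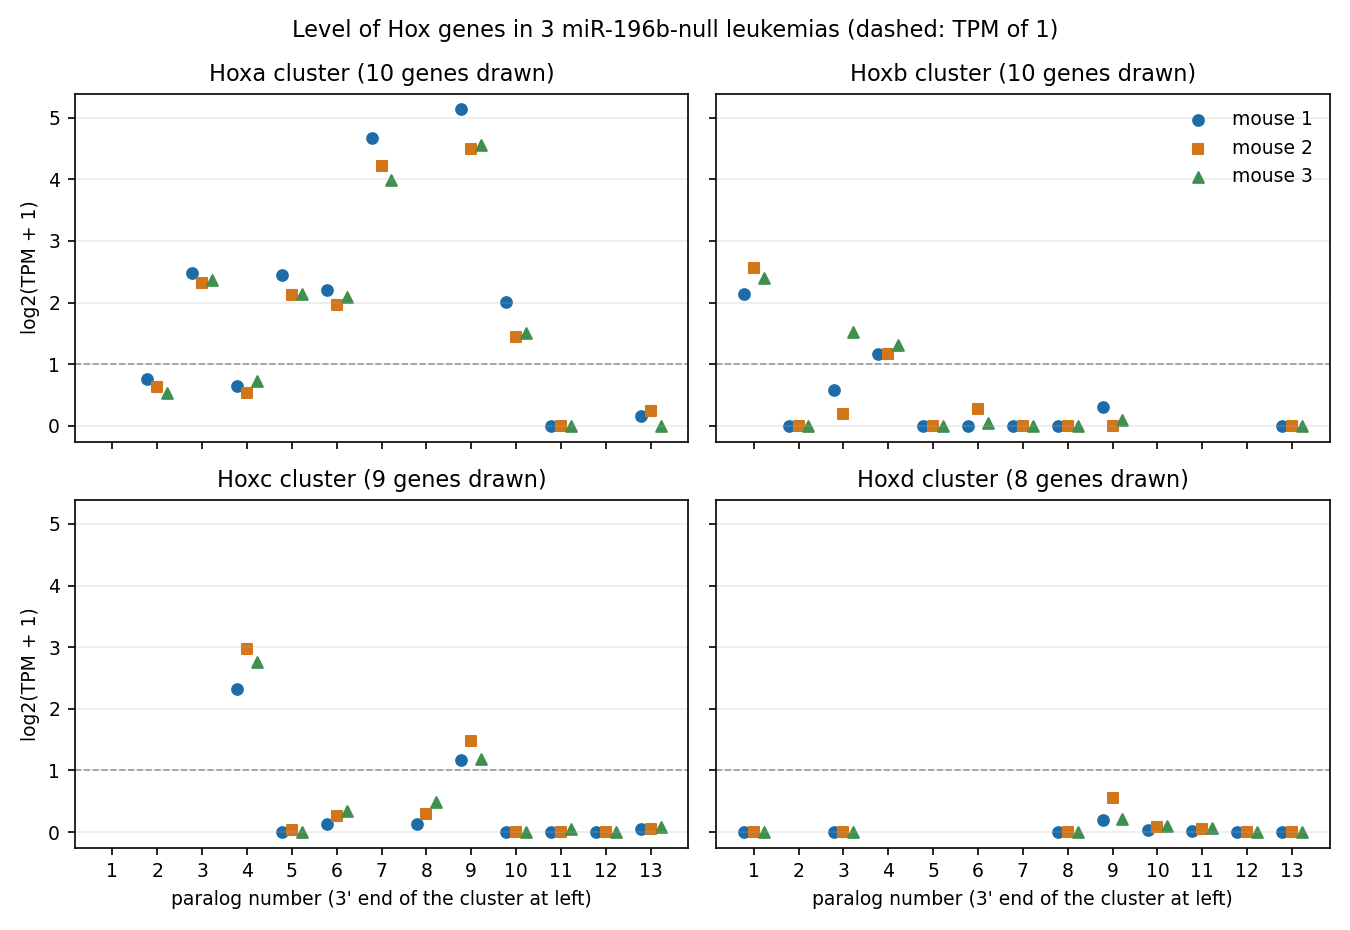
Level of the Hox genes, log2(TPM + 1), by paralog number in the Hoxa, Hoxb, Hoxc and Hoxd clusters, with 1 symbol per mouse and a dashed line at a TPM of 1. Hoxa7 and Hoxa9 stand above all others in each mouse, and no Hoxd gene reaches the line.

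The clusters differed widely. Hoxa held 6 of the 10 detected genes (Hoxa3, Hoxa5, Hoxa6, Hoxa7, Hoxa9 and Hoxa10), Hoxb held Hoxb1 and Hoxb4, Hoxc held Hoxc4 and Hoxc9, and Hoxd held none of its 8 genes with a row. The summed Hoxa level was 75.9, 52.5 and 51.3 TPM in mice 1, 2 and 3. The summed Hoxb level was 5.36, 6.50 and 7.75 TPM, the Hoxc level 5.47, 9.09 and 7.82 TPM and the Hoxd level 0.189, 0.557 and 0.278 TPM. In every mouse the Hoxa sum was above the Hoxb and Hoxc sums together, and the ranges did not overlap. Hoxa genes held 87.3%, 76.5% and 76.4% of the summed Hox TPM, a mean of 80.1% ± 6.28 (SD, n = 3).

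Hoxa9, the Hox gene most closely tied to mouse myeloid leukemia, was the most abundant member, at 34.2, 21.6 and 22.5 TPM in mice 1, 2 and 3 (26.1 ± 7.01 TPM). Mouse 1 stood above the others, which were close to each other. This mean lay at percentile 60.4 of the symbols with a mean TPM of at least 1.

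Hoxa7, a neighbour that is often expressed with Hoxa9 in leukemias, stood at 24.5, 17.6 and 14.8 TPM (19.0 ± 4.98 TPM), also highest in mouse 1. Its range overlapped that of Hoxa9, but Hoxa9 was higher within each mouse, by 1.40, 1.23 and 1.52 times. Hoxa7 and Hoxa9 together made up 67.5%, 57.1% and 55.6% of all Hox TPM.

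Hoxa10, the gene on the other side of miR-196b and a factor that alters myeloid and megakaryocytic differentiation when overexpressed, was far lower, at 3.01, 1.72 and 1.83 TPM. The hairpin lies 1031 bases beyond the 3′ end of Hoxa10 (chr6:52231197-52240854) and 2710 bases before the start of Hoxa9 (chr6:52223097-52227370) in RefSeq. Within a mouse, Hoxa9 was 11.3, 12.6 and 12.3 times as high as Hoxa10. The ratio thus spread little (12.1 ± 0.650), while Hoxa9 itself spanned 1.58-fold and Hoxa10 1.76-fold over the mice. The difference in log2(TPM + 1) was 3.13, 3.06 and 3.05, a mean of 3.08 ± 0.04 (SD, n = 3). An exact two-sided sign-flip permutation test gave p = 0.25, which is the smallest p that 3 mice allow. On this scale the pseudocount of 1 compresses the low Hoxa10 values, and without it the mean difference was 3.59.

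**Figure D2:**
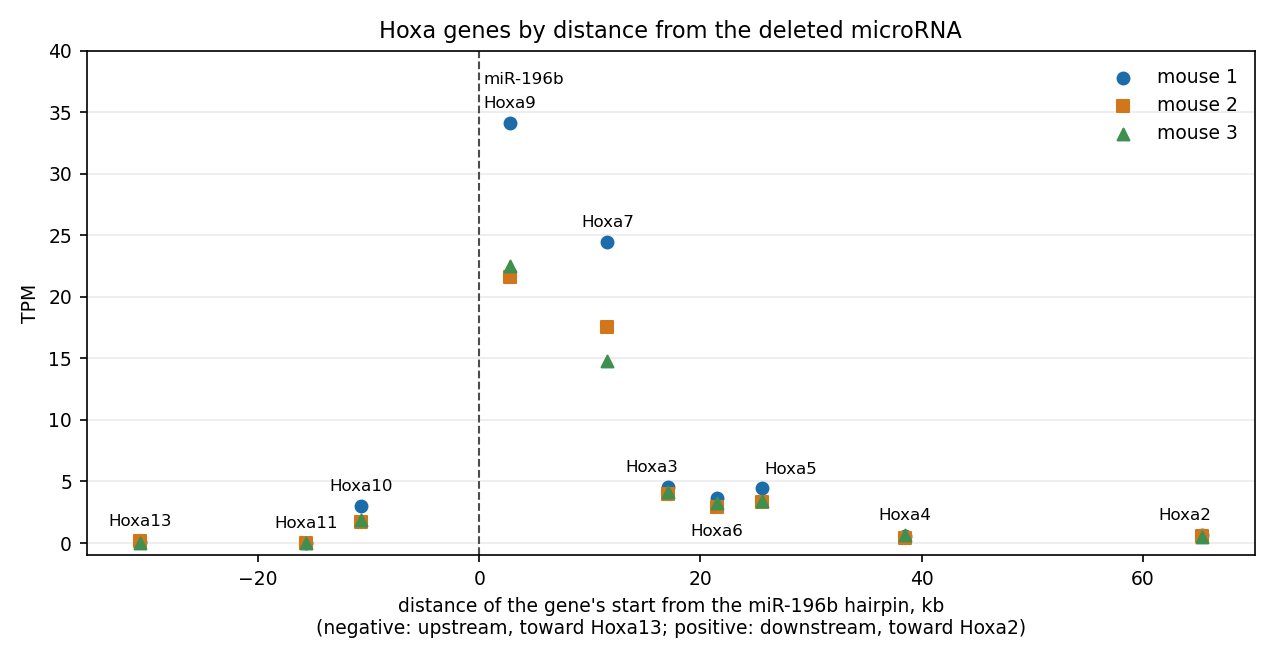
TPM of 10 Hoxa genes in each mouse against the distance of the gene's start from the miR-196b hairpin in kb, positive toward Hoxa2. Levels peak at Hoxa9 and Hoxa7, 2.80 and 11.6 kb to the right of the hairpin, and are low on its left, where Hoxa10 starts 10.7 kb away. Hoxa3 is drawn at its RefSeq start, 17.1 kb to the right, nearer the hairpin than Hoxa6 (21.5 kb) and Hoxa5 (25.6 kb).

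The anterior and central Hoxa genes were low to moderate. Hoxa3, needed for thymus and parathyroid formation, stood at 4.56, 3.99 and 4.17 TPM and was the steadiest detected member, with an SD of 0.08 on the log2(TPM + 1) scale. Hoxa5, a factor of lung and blood development, stood at 4.44, 3.35 and 3.39 TPM. Hoxa6 stood at 3.63, 2.91 and 3.26 TPM.
For each of these genes mouse 1 was again the highest in the deposited values. Hoxa2 and Hoxa4 stayed at or below 0.690 TPM in every mouse. By paralog number Hoxa4 was thus a low point between the detected Hoxa3 and Hoxa5. In RefSeq the span of Hoxa3 (chr6:52169059-52213067) also covers Hoxa4, Hoxa5 and Hoxa6. At the posterior end Hoxa11 was listed at 0 in all mice and Hoxa13 stood at 0.118, 0.185 and 0 TPM.

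Outside Hoxa the most abundant member was Hoxc4, at 4.0, 6.83 and 5.78 TPM. Mouse 1 was the lowest, the reverse of the detected Hoxa genes. Within a mouse Hoxc4 was 7.11, 15.4 and 8.88 times as high as its paralog Hoxa4.
Hoxb1, a gene best known for its role in the embryonic hindbrain, stood at 3.39, 4.90 and 4.30 TPM and was again lowest in mouse 1. Hoxc9, a regulator of motor neuron identity, stood at 1.26, 1.78 and 1.29 TPM. Hoxb4, which expands blood stem cells when overexpressed, stood at 1.24, 1.24 and 1.47 TPM, the lowest of the detected members.
Just under the threshold came Hoxb3 at 0.501, 0.137 and 1.87 TPM (mean 0.835), with mouse 3 above and the other mice below 1 TPM. It became detected when mouse 1 or mouse 2 was left out.

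In the order of mean levels, Hoxa7 and Hoxc4 were the only neighbours whose ranges over the mice did not overlap: the lowest Hoxa7 value was 14.8 TPM and the highest Hoxc4 value 6.83 TPM. From Hoxc4 down through Hoxa3, Hoxb1, Hoxa5, Hoxa6, Hoxa10, Hoxc9 and Hoxb4, the ranges of every neighbouring pair overlapped. Within a mouse, Hoxa5 was above Hoxa6 and Hoxa6 above Hoxa10 in 3 of 3 mice, while the other neighbours of that group kept their order in 1 or 2 of 3. Genes further apart could be separated: the lowest Hoxc4 value, 4.0 TPM, was above the highest Hoxa10 value, 3.01 TPM.

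The remaining Hoxb and Hoxc genes were near or at 0. Hoxb2, Hoxb5, Hoxb7, Hoxb8 and Hoxb13 were listed at 0 in all mice, as were Hoxc10 and Hoxc12. Hoxb5 is used as a marker of long-term blood stem cells, and Hoxb8 blocks myeloid maturation when overexpressed. Hoxb6 stood at 0, 0.212 and 0.0346 TPM, Hoxb9 at 0.230, 0 and 0.0711 TPM, and Hoxc8 at 0.0935, 0.228 and 0.408 TPM.
The others of these clusters, Hoxc5, Hoxc6, Hoxc11 and Hoxc13, stayed at or below 0.260 TPM in every mouse. In Hoxd, whose posterior genes shape limbs and genitalia, Hoxd9 was highest at 0.146, 0.465 and 0.157 TPM. Hoxd10 and Hoxd11 stayed at or below 0.0740 TPM, and Hoxd1, Hoxd3, Hoxd8, Hoxd12 and Hoxd13 were listed at 0 in all mice.

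Of the 5 members with an ACTACCTA site, Hoxa7 and Hoxa5 were thus detected, and Hoxb6, Hoxb7 and Hoxc8 were not. Hoxb8, with the most complete site, was listed at 0 in all mice. These levels are of leukemias without miR-196b only, and their relation to the sites was not tested.

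Summed over clusters, paralog groups 7 to 10, which surround miR-196b in Hoxa, held 73.0%, 63.2% and 61.3% of Hox TPM in mice 1, 2 and 3 (65.8% ± 6.25, SD, n = 3). Group 9 held 41.2%, 34.7% and 35.8%, nearly all of it Hoxa9, which was 27.2, 12.1 and 17.5 times as high as Hoxc9. Group 7 held 28.2%, 25.6% and 22.1%, all of it Hoxa7, since Hoxb7 was listed at 0. Group 8, which has no Hoxa member, stayed between 0.108% and 0.607%.
Groups 1 to 6 together held 26.8%, 36.4% and 38.5%. Group 4, led by Hoxc4, held 6.68%, 12.4% and 11.8%, and group 3, led by Hoxa3, held 5.83%, 6.01% and 8.99%. Groups 11 to 13, the most posterior genes, held 0.188%, 0.366% and 0.199%.

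**Figure D3:**
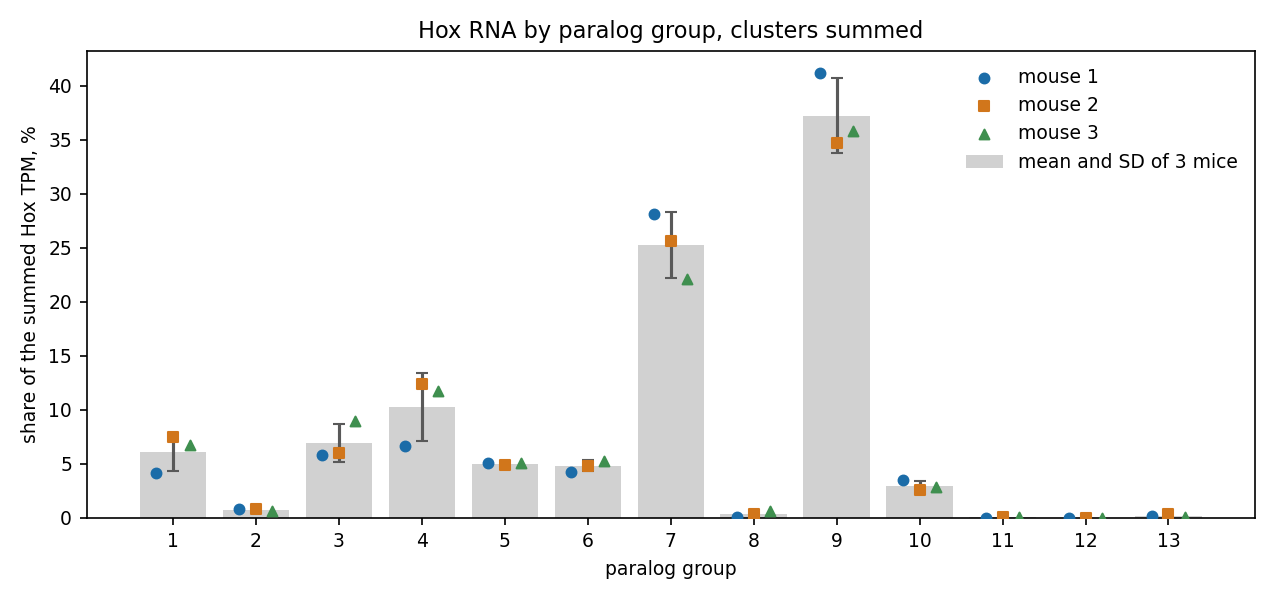
Share of the summed Hox TPM, in percent, held by each paralog group with the clusters summed. Bars are means and error bars SDs over the 3 mice, whose own values are the symbols. Groups 9 and 7 hold the largest shares in each mouse, and groups 11 to 13 hold next to none.

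Between mice the detected Hox genes split by cluster. All 6 detected Hoxa genes were highest in mouse 1, against 48.6% of symbols with a mean TPM of at least 1, and all 4 detected Hoxb and Hoxc genes were lowest in mouse 1, against 24.4%. After scaling to a common upper quartile the counts were 5 of 6 (against 35.6%), with Hoxa3 then highest in mouse 3, and 4 of 4 (against 36%). Over all 10 detected Hox genes, 6 were highest in mouse 1, 3 in mouse 2 (against 31.1% of symbols) and 1 in mouse 3 (against 20.3%), and after scaling 5, 3 (against 33.9%) and 2 (against 30.4%). The lowest value fell in mouse 1 for 4, in mouse 2 for 5 (against 33%, or 33.5% after scaling) and in mouse 3 for 1 (against 42.6%, or 30.5% after scaling), with the same counts of Hox genes after scaling. Hoxb4 carries little of this, since its values in mice 1 and 2 were 1.24059 and 1.24198 TPM.
The ratio of summed Hoxa to summed Hoxb and Hoxc TPM, which does not depend on the scaling of a column, was 7.0 in mouse 1, 3.37 in mouse 2 and 3.29 in mouse 3. On the log2(TPM + 1) scale mouse 1 exceeded the mean of the others by 0.61 for Hoxa9, 0.57 for Hoxa7 and 0.53 for Hoxa10, and the difference was -0.54 for Hoxc4 and -0.35 for Hoxb1. These patterns were noted after the values were seen, and with 1 group they describe 3 mice.

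**Figure D4:**
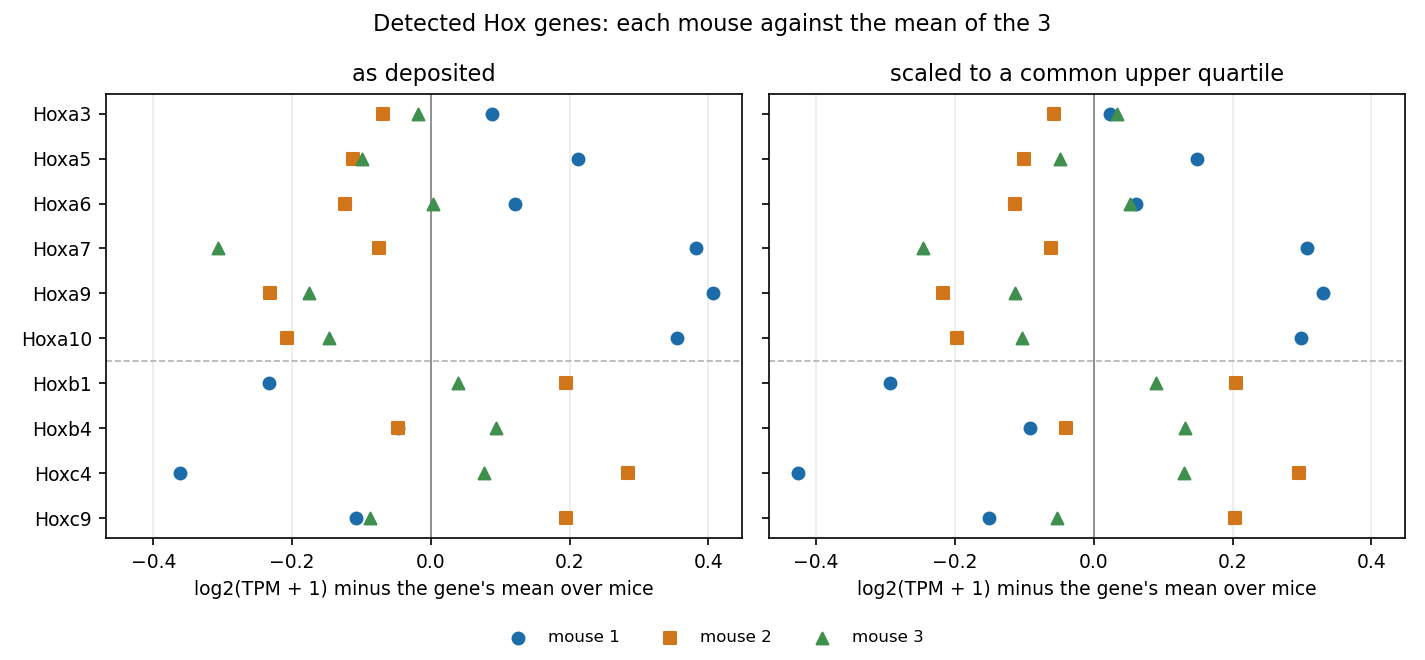
For the 10 detected Hox genes, log2(TPM + 1) in each mouse minus the mean of the gene, as deposited at left and after scaling to a common upper quartile at right. Mouse 1 is at the right end for the Hoxa genes above the dashed line, except Hoxa3 after scaling, and at the left end for the Hoxb and Hoxc genes below it.

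The spread of the Hox genes is given beside that of other genes. The median SD of the 10 detected members was 0.20 on the log2(TPM + 1) scale, with a range from 0.08 for Hoxa3 to 0.35 for Hoxa9. It was 0.21 over all 15181 symbols with a mean TPM of at least 1 and 0.23 over the 8549 symbols within the range of levels of the detected Hox genes. Without mouse 1 the Hox median was 0.10, over the 11 Hox genes then detected. The medians over all symbols were not recomputed without mouse 1.

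Markers of other cells were read beside the difference of mouse 1, and their part in it was not tested. Of all symbols with a mean TPM of at least 1, 48.6% were highest and 24.4% lowest in mouse 1 (35.6% and 36% after scaling). The 7 stem cell markers summed to 117, 93.4 and 91.8 TPM in mice 1, 2 and 3, and 3 of the 7 (Hlf, Mecom and Fgd5) were highest and 2 of the 7 (Procr and Mllt3) lowest in mouse 1. The 9 stromal markers summed to 18.3, 8.26 and 7.32 TPM, with 1 of 9 detected, Pdgfrb, which alone held 17.3, 6.91 and 6.07 TPM. The rest of this list stayed at or below 0.977 TPM in every mouse, with Dcn and Lum at 0. Among these low values Col1a1, Col1a2 and Pdgfra were lowest in mouse 1 and Tlx1 was highest there. The 6 endothelial markers summed to 45.5, 43.7 and 47.1 TPM, of which Pecam1 alone held 41.8, 39.1 and 42.5 TPM. Of the 3 detected none was highest and 1 was lowest in mouse 1. Cdh5, Kdr and Tek stayed at or below 0.603 TPM and were each lowest in mouse 1. The 5 mast cell markers summed to 83.4, 27.1 and 30.6 TPM, nearly all of it from the 2 detected members, both highest in mouse 1. These were Cpa3 at 51.9, 14.6 and 13.2 TPM and Mcpt8 at 31.4, 12.5 and 17.3 TPM. Cma1 and Fcer1a stayed at or below 0.0790 TPM, and Tpsb2 was at 0.
In the other lists the sum of mouse 1 was neither the highest nor the lowest. The sums were 38.2, 28.0 and 80.5 TPM for 6 erythroid markers and 69.5, 44.0 and 85.0 TPM for 5 megakaryocyte markers. They were 15.3, 12.8 and 16.4 TPM for 5 B cell markers and 23.7, 23.5 and 27.7 TPM for 5 T and NK cell markers. The 9 progenitor markers summed to 1849, 1652 and 2332 TPM. Of the megakaryocyte markers 3 of 5 were highest and 2 of 5 lowest in mouse 1. Of the detected B cell markers 1 of 3 was highest and 2 of 3 lowest there, with the same counts for T and NK cell markers. Of the progenitor markers 2 of 9 were highest and 3 of 9 lowest, and of the 5 detected erythroid markers none was either.

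Hox proteins bind DNA with cofactors of the Meis, Pbx and Pknox families. Of these 9 genes 6 were detected, against 54.1% of all symbols, with a median of 11.5 TPM over the 9. Meis1, the partner of Hoxa9 in leukemia, stood at 56.3, 40.1 and 34.0 TPM. It was highest in mouse 1, as were the detected Hoxa genes in the deposited values. Meis1 was 1.65, 1.86 and 1.51 times as high as Hoxa9 within a mouse. Pbx2 stood at 33.9 ± 2.33 TPM, Pbx4 at 15.5 ± 2.06 TPM and Pbx3, a cofactor required by Hoxa9 in several leukemia models, at 7.25 ± 0.461 TPM (SD, n = 3). Meis3 was listed at 0 in all mice.

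Regulators that keep Hox genes active were mostly expressed: 11 of 14 were detected, against 54.1% of all symbols, with a median of 42.8 TPM. The histone methyltransferase gene Kmt2a, listed under its older symbol Mll1, stood at 35.1 ± 2.28 TPM, its partner Men1 at 27.9 ± 2.01 TPM and the methyltransferase gene Dot1l at 39.0 ± 1.04 TPM. Npm1, a nucleolar gene whose mutation in human leukemia goes with high HOX expression, was the most abundant at 1030 ± 186 TPM (SD, n = 3). The caudal genes Cdx1, Cdx2 and Cdx4, homeobox activators of Hox genes, were listed at 0 in all mice. The Polycomb genes, which keep Hox genes silent, were all detected (13 of 13, against 54.1% of all symbols), with a median of 22 TPM. Ezh2, the main catalytic subunit in dividing cells, was highest at 143 ± 8.39 TPM.

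Noncoding RNAs of the clusters were sparse: 2 of the 11 genes with a row were detected, against 54.1% of all symbols. Hotairm1, a myeloid RNA of the Hoxa cluster listed as Gm15051, stood at 5.38, 8.63 and 6.89 TPM, lowest in mouse 1. Hoxaas3, listed as 2700086A05Rik, stood at 6.19, 3.74 and 4.70 TPM, highest in mouse 1. It lies antisense to Hoxa7 and shares 586 exonic bases with it, 20.4% of the annotated Hoxa7 exons, the widest overlap of a detected member with a single antisense gene. The labels name stranded libraries, but whether strand was used in quantification is not given in the sources used here, so reads of such pairs may not be separated. Hoxb3, just under the threshold, shared 52.9% of its exonic bases with the antisense Hoxb3os, which had a mean of 0.0666 TPM.

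Genes reported elsewhere as bound or activated by Hoxa9 were mostly expressed, 16 of 18, against 54.1% of all symbols, with a median of 50.4 TPM. The most abundant were Id2 at 482 ± 94.3 TPM, Sfpi1 (now Spi1, the myeloid factor PU.1) at 225 ± 39.2 TPM, Lmo2 at 202 ± 16.4 TPM and Myb at 163 ± 35.4 TPM (SD, n = 3). Mouse 1 was the highest for 9 of the 16, against 48.6% of all symbols with a mean TPM of at least 1.

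**Figure D5:**
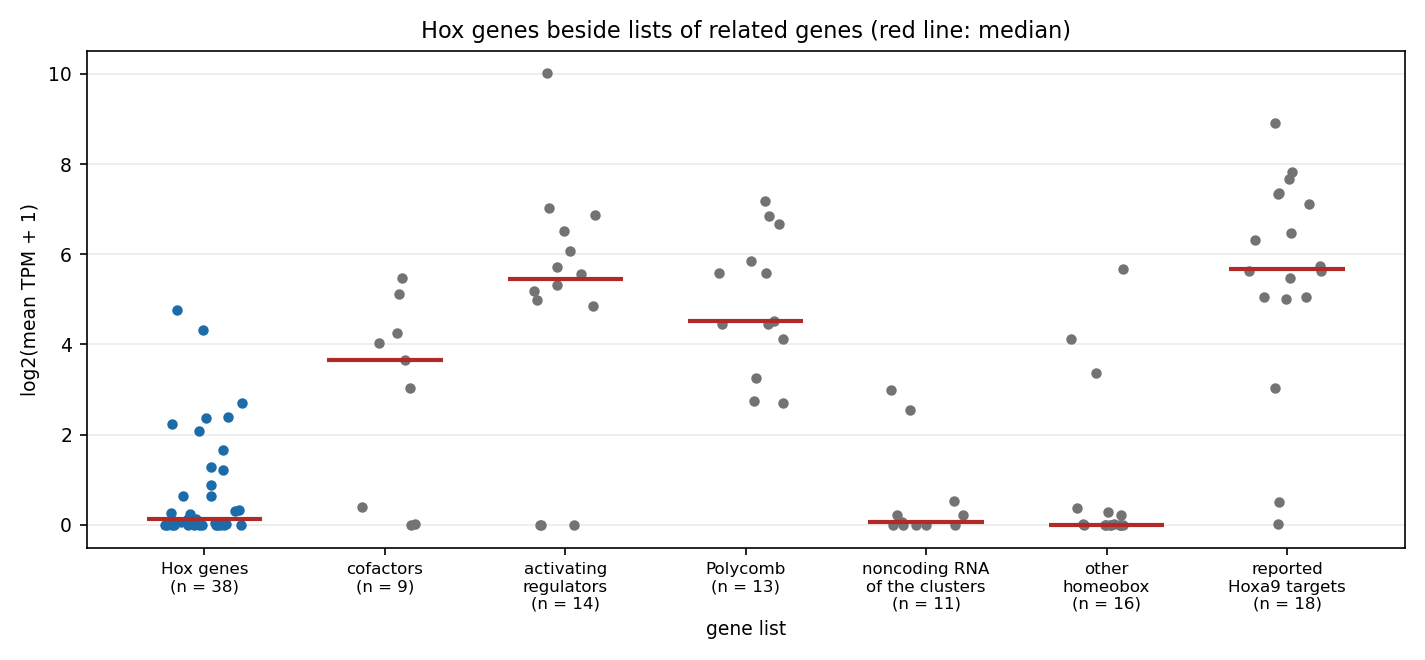
Mean level over the 3 mice, log2(mean TPM + 1), of the 38 Hox genes and of 6 lists of related genes, with 1 point per gene and a red line at the median. Hox genes, noncoding RNAs of the clusters and the chosen other homeobox genes, a list without the cofactors, have medians near 0. Cofactors, regulators and reported targets of Hoxa9 lie higher.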

How the data were processed

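RNA of c-Kit-enriched leukemic spleen cells from 3 mice (1 group) was sequenced, per the labels' protocols, as stranded paired-end libraries. The authors deposited 1 table of TPM values per symbol. Its name says log2 FPKM, but the values are linear and the columns have near-equal sums, so they were taken as TPM. The submitters' processing notes name kallisto and mm10, with no version or role. Another 3 per-sample columns match no sample of the series and stayed out. Of 28987 rows, 795 without a symbol and 27 with a date in its place were left out (0.785%, 0.734% and 0.787% of the sums in mice 1, 2 and 3), and 90 symbols on several rows were summed.

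Levels were given per mouse, with mean and SD. The scale for spread was log2(TPM + 1), and a mean TPM of at least 1 counted as detected. Members and lists were chosen with earlier results of these data known. Lists were described by counts and medians, with older symbols matched through RefSeq synonyms. Every member entered the counts and sums; 1 member and a few listed genes are not reported here by name. From each other list up to 4 of its most abundant genes, genes at 0, Meis1 and Pbx3 could be named. Hlf, Mecom, Fgd5, Procr, Mllt3, Pdgfrb, Pdgfra, Cdh5, Tek, Kmt2a, Men1, Dot1l, Lnp, Mtx2, Evx2 and Ptprc were named after their values were seen. Flt3, and Hoxb3os, which is on no list, were also named outside this rule. Coordinates are from RefSeq on GRCm38.p6 and GENCODE M21 on GRCm38. Functions were tested on simulated data. Alternatives covered the pseudocount, the filter, the upper quartile and each mouse left out. Values were computed with pandas 2.3.3 and numpy 2.4.6 under Python 3.11.15 and drawn with matplotlib 3.10.9.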

Additional observations from a re-analysis of the deposited data

How the results depend on the processing

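The number of detected Hox genes moved with its threshold, from 10 to 19 at a mean TPM of 0.1 and to 3 at a mean TPM of 5, and ranged from 10 to 11 when a mouse was left out. The Hoxa9 minus Hoxa10 difference moved from 3.08 to 3.53 with a pseudocount of 0.1 and to 3.59 with none. The median SD of the Hox genes moved from 0.20 to 0.0563 with no filter, which adds genes at or near 0, and to 0.35 for those averaging 5 TPM or more. It ranged from 0.0995 (without mouse 1) to 0.266 when a mouse was left out. Among all Hox genes above 0 the number highest in mouse 2 moved from 3 to 8 and in mouse 3 from 1 to 9, and after upper-quartile scaling the number highest in mouse 3 was 2. The design holds a single group, so groups could not be paired. The only paired test was the sign-flip test of Hoxa9 against Hoxa10 within each mouse. Cluster sums and shares shifted by less than 1 SD over the mice under each alternative run. Of 50 recomputed levels of single Hox genes, 43 did so too, while a pseudocount of 0.1 shifted 7 by more. The runs with a mouse left out could not have failed this, since dropping 1 of 3 mice always moves a mean by less than 1 SD. The upper-quartile counts for Hoxa, and for Hoxb and Hoxc, were added with the values already seen. TPM hides the depth, and the counting error of low values is therefore not known.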

Other observations

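Of the 15 genes near the Hox clusters with a row, 11 were detected, against 54.1% of all symbols. The median over the 15 was 26.4 TPM, against 0.0913 TPM for the 38 Hox genes. Skap2, an adaptor gene near Hoxa, stood at 132, 187 and 169 TPM in mice 1, 2 and 3. It was lowest in mouse 1, where the detected Hoxa genes were highest in the deposited values. Near Hoxd, whose own genes stayed at or below 0.465 TPM, Lnp stood at 41.9 ± 3.85 TPM (SD, n = 3). Mtx2, a nuclear gene for a mitochondrial protein, stood there at 30.1 ± 4.64 TPM (SD, n = 3). The homeobox gene Evx1, next to Hoxa13, was listed at 0 in all mice, and Evx2, next to Hoxd13, stayed at or below 0.0319 TPM.

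Of 16 chosen homeobox genes outside the clusters, 3 were detected, against 54.1% of all symbols. This list leaves out the Meis, Pbx and Pknox genes, also homeobox genes outside the clusters, of which 6 of 9 were detected. Hhex, a factor of blood progenitors, stood at 57.6, 50.5 and 41.3 TPM, above Hoxa9 in each mouse. Hlx stood at 13.9, 16.8 and 18.5 TPM and Hopx, an atypical homeodomain gene, at 14, 8.58 and 5.24 TPM. Hhex and Hopx were highest in mouse 1 and Hlx was lowest there.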
